A study of Mus musculus with 20 samples.

Results

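Small RNA was compared between 2 sorted states of mouse embryonic stem cells, pluripotent cells that were derived from the early embryo and kept in culture. The culture medium held serum and leukemia inhibitory factor (LIF), a cytokine that keeps the cells pluripotent, and the cells were sorted by flow cytometry on their levels of Nanog and Sox2, a pair of pluripotency transcription factors. State 1 had high levels of both factors, and state 2 had low Nanog with high Sox2. State 3 (low levels of both) and the total population are given here only for reference. The comparison rests on 4 libraries, 2 of state 2 and 2 of state 1 (replicates D and E), among 8 small RNA libraries and 20 libraries in the whole series. The sources used here name no cell line, strain, passage or reporter, and do not say whether D and E were separate cultures. The deposited small RNA table gives 1 normalized value per feature and group, with the libraries of a group already merged. No value below therefore carries a standard deviation, and no test over libraries could be run.

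The table lists 26278 features. Of these, 605 are microRNA hairpins with a mouse miRBase name, and the other 25673 are snoRNAs, rRNAs, tRNAs, fragments of mRNAs and further classes, which were kept apart. The ratio of the states was taken as log2((state 2 + 1)/(state 1 + 1)), which understates the change of low features. A difference was called where the posterior probabilities that the authors' EBSeq model gave to patterns with unequal state 2 and state 1 summed to at least 0.95. The words rose and fell are used for called features alone.

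A microRNA is a short RNA cut by Drosha and Dicer from the stem of a hairpin transcript and loaded into an Argonaute protein. It recognizes target mRNAs mostly through its seed, bases 2 to 8 from the 5′ end, so that microRNAs with the same seed share many targets. In mouse embryonic stem cells the miR-290 to miR-295 cluster is the best known source of microRNAs, and its relatives of the miR-302 cluster are known from the later, epiblast-like pluripotent state. Members of the let-7 family are kept low in pluripotent cells by the Lin28 proteins and accumulate on differentiation.

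The mature sequences of the hairpins on which the comparison turns are shown first, from RefSeq (GRCm38.p6), with bases 2 to 8 in capitals. The first set holds members of the miR-290 and miR-302 clusters that share the seed AAGUGCU, although the clusters lie on different chromosomes; mir-291a fell, mir-302b and mir-302d rose, and mir-294 and mir-295 were not called.
miR-291a-3p: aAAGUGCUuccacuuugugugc
miR-294-3p: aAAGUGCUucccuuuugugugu
miR-295-3p: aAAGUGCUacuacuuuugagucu
miR-302b-3p: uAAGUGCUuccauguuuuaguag
miR-302d-3p: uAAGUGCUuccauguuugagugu
The next set holds products of the 3 related clusters miR-17-92, miR-106b-25 and miR-106a-363. miR-17, miR-93 and miR-106b carry the hexamer AAGUGC of the first set 1 base later, while miR-25 and miR-92a share the unrelated seed AUUGCAC.
miR-17-5p: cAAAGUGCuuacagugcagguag
miR-93-5p: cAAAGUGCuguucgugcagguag
miR-106b-5p: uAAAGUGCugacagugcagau
miR-25-3p: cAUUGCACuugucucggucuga
miR-92a-3p: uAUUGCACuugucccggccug
The third set belongs to hairpins that fell in state 2, and shows that the neighbours miR-183, miR-96 and miR-182 each have a seed of their own.
miR-183-5p: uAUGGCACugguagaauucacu
miR-96-5p: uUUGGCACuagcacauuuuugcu
miR-182-5p: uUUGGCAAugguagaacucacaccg
let-7g-5p: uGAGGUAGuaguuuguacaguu
miR-26a-5p: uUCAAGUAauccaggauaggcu
miR-196a-5p: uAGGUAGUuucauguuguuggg
The last pair comes from 3 hairpins, mir-9-1, mir-9-2 and mir-9-3, on 3 chromosomes; the mature letters are identical in all of them, which bears on how their values can be read.
miR-9-5p: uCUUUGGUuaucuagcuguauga
miR-9-3p: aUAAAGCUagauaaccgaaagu
Mature sequences were found for 528 of the 605 hairpins.

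The column totals of the small RNA table were 5127199 in state 1 and 3426915 in state 2, so the values are not scaled to a fixed total. Read from the commonest low values, about 10.1 M reads stand behind state 1 and 8.06 M behind state 2. A value listed at 0 then allows up to 1.65 in state 1 and 1.5 in state 2 (3 reads in a library), for counting error only. An equal share of both columns corresponds to a log2 ratio of -0.58 on the deposited scale, a shift that has to be kept in mind for every ratio below. On this scale the median ratio was 0.00 over all 26278 features and -0.37 over the 605 hairpins, or -0.54 over the 301 hairpins with a mean of at least 10. With each column divided by its total, the median of the hairpins was 0.05 and that of all features 0.19. In the RNA-seq table, from other libraries of the series (A to C), Nanog was listed at 4145 in state 1 and 743 in state 2 and Sox2 at 4155 and 3167. By the rule above both fell there, with log2 ratios of -2.48 for Nanog and -0.39 for Sox2 (summed probability 0.996 for Sox2). The sort is thus visible for Nanog at the mRNA level, while Sox2 mRNA was also lower in state 2. No such check of libraries D and E was made.

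MicroRNA hairpins made up 65.04% of the small RNA signal in state 1 and 58.4% in state 2. They took 38.7% in state 3 and 60.9% in the total population. The share of rRNA was 7.82% in state 1 and 10.4% in state 2, that of snoRNAs 19.1% and 20.5%, and that of fragments of protein-coding transcripts 4.56% and 6.35%. In state 3 the rRNA share was 25.7%. Whether these shares follow cell content or RNA quality was not tested. Since the libraries are bulk samples, fewer cells of a type and less RNA per cell cannot be told apart here or in any result below.

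**Figure D1:**
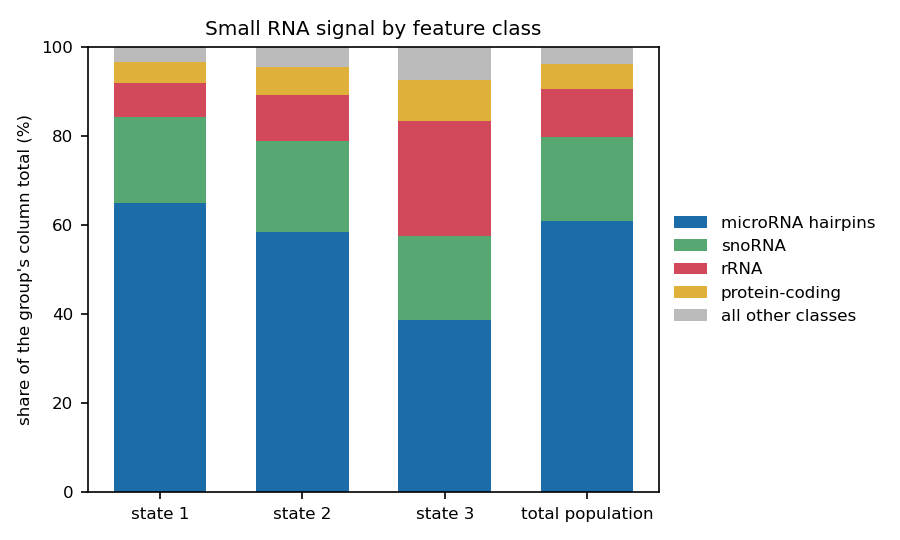
Stacked bars give the share of each group's column total (%, y axis) taken by microRNA hairpins, snoRNA, rRNA, fragments of protein-coding transcripts and all other classes, for the 3 states and the total population. Hairpins take 65.04% in state 1 and 58.4% in state 2, and in state 3 they take 38.7% beside 25.7% for rRNA.

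Of the 605 hairpins, 73 were called between state 2 and state 1 (12.1%): 15 were higher in state 2 (2.48%) and 58 lower (9.59%). Among the other 25673 features 110 were called (0.428%), 45 of them higher (0.175%) and 65 lower (0.253%), and over all features 183 were called (0.696%), 60 of them higher (0.228%) and 123 lower (0.468%). A mean of at least 10 was reached by 301 hairpins and by 3628 of the other features. At that mean 23.9% of the hairpins, 2.4% of the others and 4.05% of all features were called. Counts in the lists below are to be read beside these shares of all hairpins. The order of the patterns was inferred, and with state 1 and the total population exchanged in it 47 hairpins were called. The median fold among the called hairpins was 3.11 for those that rose and 2.13 for those that fell. With columns divided by their totals the split was 16 higher and 57 lower, and with columns divided by their hairpin totals it was 19 and 54. The hairpin that changed direction under the first was mir-320, listed at 3933 in state 1 and 3215 in state 2, the smallest called fold of all. Under the second let-7i, mir-18a and mir-1983 changed direction too.

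On the deposited scale most called hairpins that fell were listed lower again in state 3. Of the 58 that were lower in state 2, 56 were lower still in state 3, and 29 of these steps were called on their own. The exceptions were mir-652, slightly higher in state 3 than in state 2 (44.7 and 41.3), and mir-5110, listed at 0 in both. Of the 15 that were higher in state 2, 9 were lower again in state 3 and 6 of these steps were called. The total population lay between the states for 66 of the 73; mir-9-2, mir-9-3, mir-1983, mir-23b, mir-291a, mir-32 and mir-652 did not follow this. These counts share the state 2 values and are given as a description. The column totals were 3426915 in state 2 and 2610236 in state 3, and all 605 hairpins summed to 2000658 and 1008918. The step to state 3 was not rescaled, and its share over all hairpins was not counted.

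**Figure D2:**
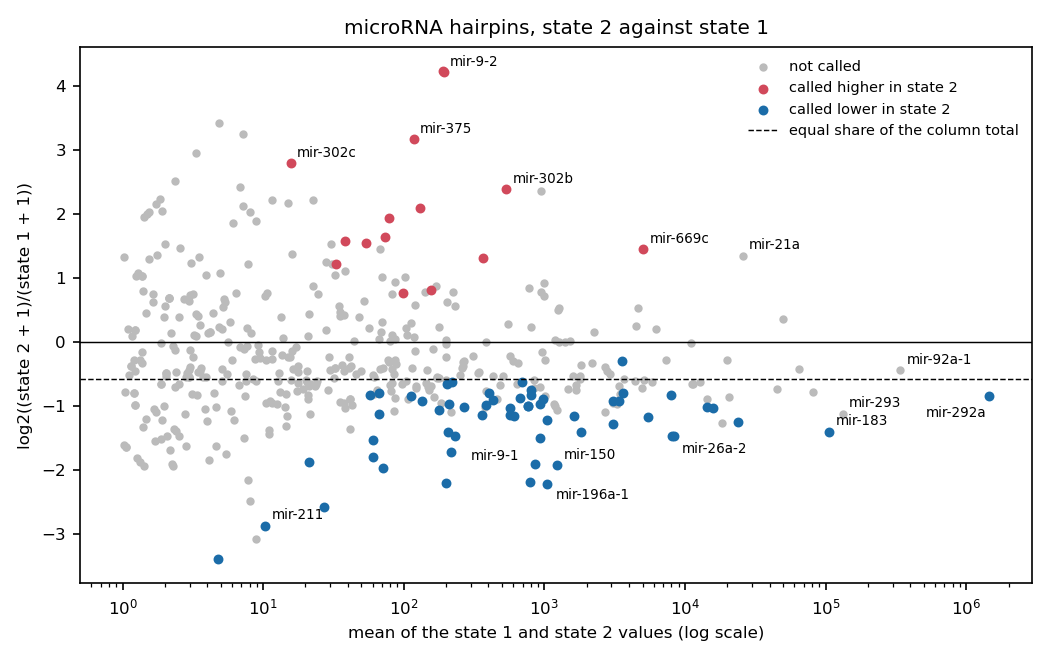
Each point is a microRNA hairpin with a mean of at least 1, placed by the mean of its state 1 and state 2 values (x axis, log scale) and its log2 ratio of state 2 to state 1 (y axis). Called hairpins are coloured, the solid line marks equal deposited values and the dashed line equal shares of the column totals (-0.58); 58 called points lie below 0 and 15 above.

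The miR-290 to miR-295 cluster supplied most microRNA signal in both states, and less of it in state 2. Its 9 hairpins summed to 2216573 in state 1 and 1216389 in state 2, which was 66.5% and 60.8% of all hairpin signal. All 9 had ratios below 0, between -1.26 and -0.66 with a median of -0.89, against -0.37 for all hairpins, and 3 of them were called. On column totals the median of the cluster was -0.31, and on hairpin totals -0.15. The cluster lies on chromosome 7.

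The largest single contribution came from mir-292a (chr7:3219189-3219270), which was listed at 1855076 in state 1, 1035592 in state 2, 430145 in state 3 and 1384684 in the total population. It fell between state 1 and state 2 (log2 ratio -0.84, summed probability 0.964), and its share of all hairpin signal was 55.6% in state 1 and 51.8% in state 2. mir-291a, whose 3p arm carries AAGUGCU, fell from 21383 to 10415 (log2 ratio -1.04), and mir-291b fell from 1277 to 689 (-0.89). The 2 states are thus apart in each of these 3, with state 3 lowest.

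The other members were not called, in spite of ratios of the same size. mir-293 was listed at 181003 in state 1 and 83424 in state 2, a log2 ratio of -1.12, with a summed probability of 0.0025. mir-295 was at 26063 and 10853 (log2 ratio -1.26, probability 0.84), and mir-294 at 26555 and 14572. mir-292b, at 102885 and 59553, lies on the opposite strand of mir-292a within the same interval, so reads of the pair can be told apart only by strand; the sources used here do not state how strand was counted. Among all hairpins with a mean of at least 100 and a log2 ratio of at least 1 in size, 35 of 44 were called.

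The miR-302 cluster went the other way at a far lower level. mir-302b (chr3:127545228-127545301) rose from 170 in state 1 to 898 in state 2 and was at 992 in state 3 and 558 in the total population (log2 ratio 2.39). mir-302d rose from 48.8 to 212 (2.10) and mir-302c from 3.21 to 28.2 (2.79). mir-302a, the most abundant of them, was at 306 and 1575 with a summed probability of 0.83 and was not called. mir-367, the member with the AUUGCAC seed, was listed at 0 in state 1 and 3.72 in state 2. All 5 members of the cluster had a ratio above 0 under every scaling, with a median of 2.36 as deposited, and state 2 was closer to state 3 than to state 1 in each of them.

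Set side by side, the 9 hairpins of the miR-290 cluster exceeded the 4 miR-302 hairpins 4197-fold in state 1, 448-fold in state 2, 176-fold in state 3 and 1082-fold in the total population. This ratio is taken within a column and so does not depend on its scaling. The 5 hairpins whose listed mature sequence has the seed AAGUGCU (mir-291a, mir-294, mir-295, mir-302b, mir-302d) summed to 74220 in state 1 and 36950 in state 2 (log2 ratio of the sums -1.01). Within this seed family 1 hairpin fell and 2 rose. The 3p sequences of mir-302a and mir-292a were not available, so these hairpins could not be placed by that arm. In the miR-290 cluster mir-290a, mir-292a and mir-293 also share the 5p seed CUCAAAC, and the table does not separate arms.

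The 3 clusters related to miR-17, which are known to promote proliferation, did not move as 1 group. In miR-17-92, on chromosome 14, mir-18a fell from 267 to 173 and the other 4 measured members were not called; the median was -0.70. mir-92a-1, the next most abundant hairpin after mir-292a, was at 390040 in state 1 and 287575 in state 2 (log2 ratio -0.44, probability 0.0002), so that its share of the hairpin signal was 11.7% and 14.4%. In miR-106b-25, which lies within the replication licensing gene Mcm7, mir-93 fell from 2246 to 1009 (-1.15) and mir-106b from 10170 to 5720 (-0.83). mir-25 was at 56360 and 33794 and was not called.

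The 6 hairpins of the X-linked cluster miR-106a-363 stood apart from these in their values: none was called, and 5 had ratios above 0 with a median of 0.21. mir-92a-2, which makes the same mature miR-92a as mir-92a-1, was listed at 44004 and 56257, and mir-363 at 5761 and 6631. The sum of the 2 miR-92a hairpins was 434044 in state 1 and 343832 in state 2. As the mature letters are the same in both, part of the reads of the pair cannot be placed by sequence.

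All 3 hairpins of the cluster of miR-183, miR-96 and miR-182, known from sensory organs, fell, against 9.59% of all hairpins. mir-183 (chr6:30169668-30169737) was listed at 154336 in state 1, 58489 in state 2, 32194 in state 3 and 110402 in the total population (log2 ratio -1.40). mir-182 fell from 33600 to 14177 (-1.24) and mir-96 from 2651 to 1000 (-1.41). They remained below 0 on column totals (median -0.82) and on hairpin totals (-0.66), and their summed share of the hairpin signal was 5.72% in state 1 and 3.68% in state 2. This was the list with the lowest median of the 20.

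The miR-200 family, which represses the Zeb factors of the epithelial to mesenchymal transition, had no called member among 5. mir-200b was listed at 3766 in state 1, 5430 in state 2 and 2198 in state 3, mir-200a at 755 and 1246, mir-200c at 550 and 993, and mir-429 at 85.9 and 88.5. The median of the family was 0.53. mir-200a, mir-200b and mir-200c were thus listed highest in state 2 of the 4 groups, without a call against state 1.

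Of the 13 hairpins of the let-7 family 8 fell and none rose, against 9.59% and 2.48% of all hairpins, with a median of -0.82. In this family 11 hairpins had a mean of at least 10, where 23.9% of all hairpins were called. let-7c-1 and let-7c-2 share a mature sequence, as do let-7f-1 and let-7f-2, so the falls within each pair are not independent. let-7g (chr9:106178840-106178927) fell from 1384 in state 1 to 487 in state 2 and was at 156 in state 3 (log2 ratio -1.51). let-7f-2 fell from 845 to 377 and let-7f-1 from 785 to 355, while let-7c-1, let-7c-2, let-7a-1, let-7i and let-7d fell by less. The family was lower in state 2 in summed value (7310 and 3790) and made 0.219% of the hairpin signal in state 1 and 0.189% in state 2. On hairpin totals the median of the family was -0.09, and let-7i had a ratio of 0.12.

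The miR-26, miR-130 and miR-148 families, with roles in cell growth and lipid metabolism, were listed together with mir-103-1 and mir-103-2. Of these 12 hairpins 5 fell and none rose. Of all hairpins 9.59% fell and 2.48% rose. All 12 had a mean of at least 10, where 23.9% of all hairpins were called. mir-26a-2 fell from 12249 to 4405 and mir-26a-1 from 11854 to 4264 (both -1.47), and the pair makes the same miR-26a. mir-148b fell from 4441 to 2350, and mir-103-1 and mir-103-2 from 1022 and 1025 to 509 and 511. The miR-103 pair shares a mature sequence too, so the falls within each of these pairs are not independent. mir-148a, a more abundant relative, was at 74649 and 55665 and was not called. Of the miR-15/16 family and its neighbours, known to restrain the cell cycle, only mir-15b was called among 13 (511 to 259). All 13 had a mean of at least 10, so this is less than the 23.9% of hairpins called at that mean. mir-16-1 lay just under the threshold, with a summed probability of 0.9495. No member of the miR-30 family was called among 6.

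**Figure D3:**
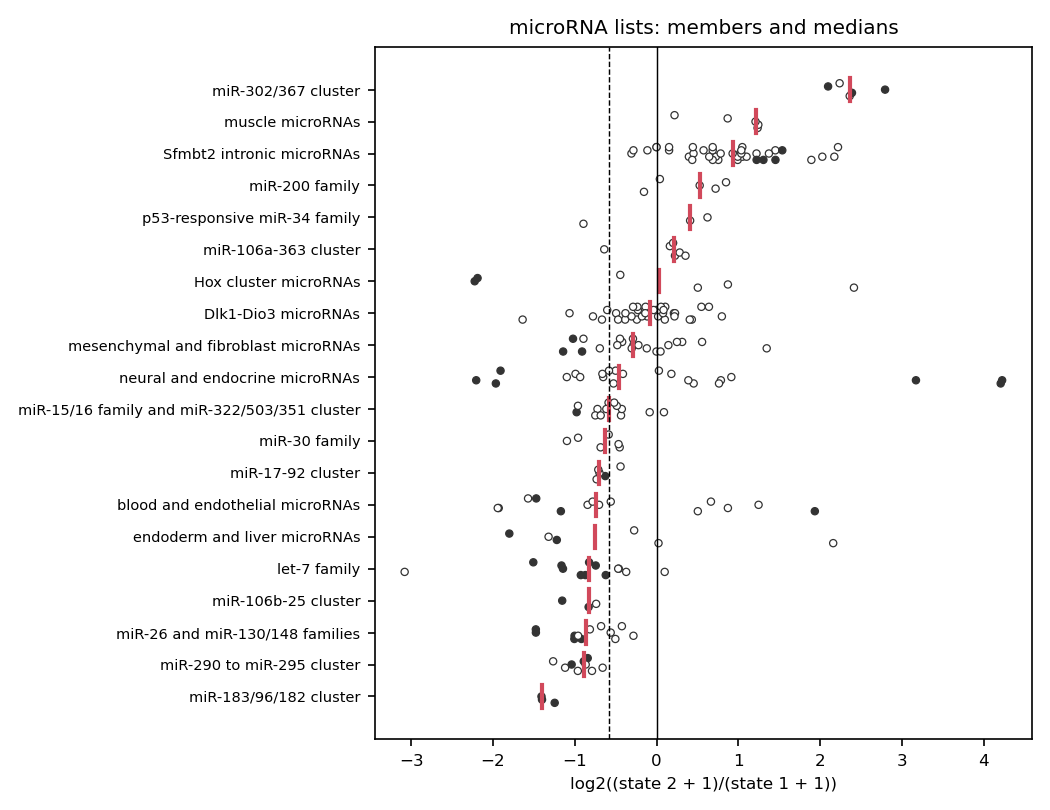
Each row is a list of microRNAs and each point a hairpin, placed by its log2 ratio of state 2 to state 1 (x axis); filled points were called, red bars are list medians, the solid line is 0 and the dashed line the ratio of equal column shares (-0.58). The miR-302 cluster has the highest median (2.36) and that of miR-183, miR-96 and miR-182 the lowest (-1.40).

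The largest called falls were spread over several of the lists. mir-196a-1 and mir-196a-2, which lie in the HoxB and HoxC clusters, fell from 1732 to 370 (-2.22) and from 1297 to 284 (-2.19); the total population was at 1046 and 758. The other 4 measured microRNAs of Hox clusters were not called: mir-10a was at 1026 and 1457, mir-10b at 119 and 219, mir-196b at 34.6 and 25.2 and mir-615 at 1.49 and 12.3. The median of these 6 was 0.03, with 3 above and 3 below 0. mir-124-3 and mir-124-1, hairpins of the neuronal miR-124, fell from 331 to 71.1 (-2.20) and from 113 to 28.3 (-1.96). mir-150, known from lymphocytes, fell from 1963 to 515 (-1.93), and mir-194-2, known from gut and liver, from 94.1 to 26.3 (-1.80). Each of the 6 hairpins that fell was lowest in state 3 among the 4 groups. mir-211 was listed at 18.99 in state 1, 1.74 in state 2, 0 in state 3 and 2.08 in the total population (-2.87).

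The rises were fewer and mostly at low values. mir-375, known from endocrine cells of the pancreas, rose from 22.7 in state 1 to 213 in state 2 (log2 ratio 3.17) and was at 146 in state 3 and 43.6 in the total population. mir-146a, known as a brake on innate immune signalling, rose from 32.2 to 126 (1.94) and was at 131 in state 3. mir-139 rose from 35.04 to 111 (1.63) and mir-504 from 18.6 to 57.4 (1.58). mir-224 rose from 113 to 199 and mir-455 from 72.6 to 123. Of these 6, mir-375 and mir-139 were clearly highest in state 2, mir-504 was higher again in state 3 (141), and the other 3 were at like values in states 2 and 3.

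**Figure D4:**
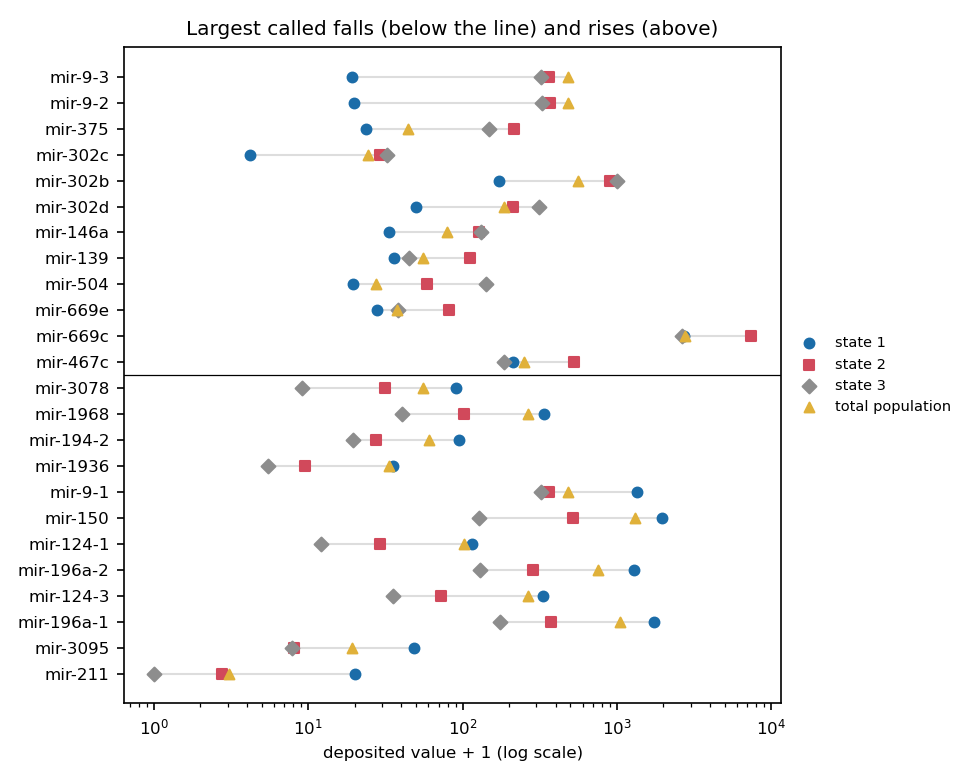
For the 12 largest called rises (upper rows) and the 12 largest called falls (lower rows) with a mean of at least 10, symbols give the deposited value plus 1 (x axis, log scale) in each state and in the total population. The falls run on from state 2 to state 3, while mir-669c, mir-467c, mir-669e, mir-139 and mir-375 are highest in state 2.

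The largest rises among called hairpins were those of 2 of the 3 miR-9 hairpins, which share both mature sequences. mir-9-2 rose from 18.9 to 366.8 (log2 ratio 4.21) and mir-9-3 from 18.3 to 360 (4.23), whereas mir-9-1 fell from 1357 to 361 (-1.91). In state 2 the 3 hairpins were thus listed at nearly equal values, as they were in state 3 (323, 324 and 322) and in the total population (481, 480 and 483), and only in state 1 did mir-9-1 hold almost all of the signal. Their sum was 1395 in state 1, 1089 in state 2, 969 in state 3 and 1444 in the total population, and the log2 ratio of the sums was -0.36. The sum carries no call of its own, and its direction is that of mir-9-1, not of mir-9-2 and mir-9-3.

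The other called hairpins with a shared mature sequence moved together. The sum of both miR-196a hairpins was 3029 in state 1 and 654 in state 2 (-2.21), that of miR-26a 24103 and 8669 (-1.48), and that of let-7f 1630 and 732 (-1.15). For miR-103 the sums were 2046 and 1020. These ratios were close to those of the single hairpins.

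The hairpins in the Sfmbt2 gene had a larger summed value in state 2 than in the other groups, although most were not called singly. Sfmbt2, a Polycomb-related gene expressed from the paternal allele and needed in the placenta, holds a large array of rodent microRNAs in an intron. Of 39 listed hairpins 4 rose, none fell and 35 were not called (2.48% of all hairpins were higher and 9.59% lower), with a median of 0.93 against -0.37 for all hairpins, and 36 of the 39 lie inside Sfmbt2 by position (chr2:10370440-10595253). mir-669c (chr2:10509296-10509404) rose from 2706 to 7418 and was at 2623 in state 3 and 2759 in the total population (log2 ratio 1.45). mir-467c rose from 211 to 523, mir-669e from 27.1 to 80.5 and mir-669h from 19.5 to 46.9. The 36 hairpins summed to 3490 in state 1, 9050 in state 2, 3433 in state 3 and 3608 in the total population. mir-669c made most of each sum. Of the 36 hairpins 27 were listed highest in state 2. Members of the array are near-copies of each other, so the values of single hairpins are uncertain where reads fit several. In the RNA-seq table Sfmbt2 itself rose from 568 in state 1 to 2133 in state 2 (log2 ratio 1.91).

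Among microRNAs of connective tissue and fibroblasts 3 of 20 fell and none rose, against 9.59% and 2.48% of all hairpins. The share of falls was thus near that of hairpins at large. A mean of at least 10, where 23.9% of all hairpins were called, was reached by 17 of the 20. mir-27b fell from 19059 to 9393 (-1.02, summed probability 0.952), mir-23b from 562 to 299 and mir-143 from 493 to 223. mir-21a was listed at 14545 in state 1, 37008 in state 2, 40047 in state 3 and 24998 in the total population. Its log2 ratio of 1.35 was among the largest for an abundant hairpin, and its summed probability was 0.033.

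Markers of other cell types were read for the whole lists. Of 5 measured markers of fibroblasts or feeder cells, the sum was 15124 in state 1 and 37291 in state 2, and mir-21a made nearly all of it; mir-143 fell, mir-199a-1 was at 57.4 and 41.9, mir-145a at 29.3 and 17.8, and mir-214 was listed at 0 in both states. The blood markers mir-451a, mir-223, mir-144 and mir-142a were each at 3.6 or less in both states, beside mir-150, which fell. The 4 muscle markers summed to 35.4 and 79.1, none of them called. The 4 markers of liver and endoderm summed to 2672 and 1849: mir-192 fell from 1452 to 623 (-1.22), and mir-194-1 (21.3 and 7.93, -1.32), mir-122 (1189 and 1210) and mir-215 (9.66 and 7.82) were not called. The 5 neural markers, the miR-9 hairpins with mir-124-1 and mir-124-3, summed to 1839 and 1188. The markers of embryonic stem cells were at 63.3% of the hairpin signal in state 1 and 57.9% in state 2. The part of other cell types in the results was not tested.

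Hairpins inside genes could be set beside their host transcript in the RNA-seq table, where 13.4% of 29692 genes were called between the same states (7.11% higher, 6.33% lower). That share has no minimum mean, and none was taken at values like those of the hosts. Of the 73 called hairpins 40 lie inside a gene that is not known to be on the opposite strand, in 35 host genes. The host was called in 20 of these 40 pairs, covering 16 genes. The hairpin and the host moved the same way in 19 of the 20, both lower in 11 and both higher in 8, of which 4 share the host Sfmbt2. For 7 of the 20 pairs the strand is not known, and all 7 moved the same way. Pairs on opposite strands gave 6 called hairpins, with the host called in 4 pairs, covering 2 genes. All 4 moved the same way, so like directions were also seen without a shared strand. The pairs come from different libraries (D and E against A to C) sorted for the same states.

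Examples of joint falls were mir-1936 (34.1 to 8.57) with Itpk1, an inositol phosphate kinase (3606 to 1281), mir-3095 (47.4 to 7.08) with the lysophosphatidic acid receptor Lpar1 (253 to 105), and mir-1968 (335 to 101) with Grtp1 (690 to 345). mir-26a-2 fell with Ctdsp2, a phosphatase of RNA polymerase II (2590 to 1484), and mir-191 and mir-425 with Dalrd3 (355 to 231). Joint rises were mir-139 with the phosphodiesterase Pde2a (32.8 to 202), mir-504 with Fgf13 (12.2 to 74.1) and mir-224 with the GABA receptor gene Gabre (4.86 to 15.4). The exception was mir-652, which fell from 74.1 to 41.3 while its host Tmem164 rose from 236 to 423. For mir-93 and mir-106b the host Mcm7 was at 7328 and 5945 and was not called, and for let-7f-2 the host Huwe1 was at 22308 and 21128. The miR-302 hairpins lie on the strand opposite to Larp7, which rose from 843 to 1050, and were counted only among the opposite-strand pairs.

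Most called fragments of protein-coding transcripts in the small RNA libraries had the direction of their RNA-seq values. Of 16074 protein-coding features 74 were called in the small RNA table (0.46%, beside 0.696% over all features), 33 of them higher and 41 lower. Of these 74, 65 had the same sign in the RNA-seq table, and 47 were called there, all 47 in the same direction. Over all RNA-seq genes, with no minimum mean, 13.4% were called. Only features called in the small RNA table were compared. Leaving out features that hold a small RNA gene in RefSeq or have no RefSeq entry left 63, of which 43 were called in RNA-seq and 43 in the same direction. As the rule set these features apart from microRNAs, they are given as fragments only; their lengths are not in the table.

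Examples of fragments that fell follow, chosen after their values were seen. The transcription factor Tbx3 was at 26.4 and 3.23 in the small RNA table and 2550 and 372 in RNA-seq. Tfcp2l1 was at 96.8 and 25.5 (16245 and 3698 in RNA-seq), Klf2 at 24.8 and 6.44, Tet2, a DNA demethylation enzyme, at 42.1 and 10.3, Zfp42 at 25.2 and 10.4, and Tdh, the threonine dehydrogenase of these cells, at 47.9 and 23.9. Those that rose held the de novo DNA methylation genes Dnmt3b (24.0 to 83.1) and Dnmt3l (8.97 to 32.9), the endocytic receptor Lrp2 (10.1 to 64.2), Podxl (2.04 to 18.5), the cadherin Cdh1 (48.6 to 87.9) and Lefty2, an inhibitor of Nodal (0.77 to 10.2). These too were chosen after their values were seen. State 2 thus differed from state 1 in the same direction in both kinds of library for each of them.

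**Figure D5:**
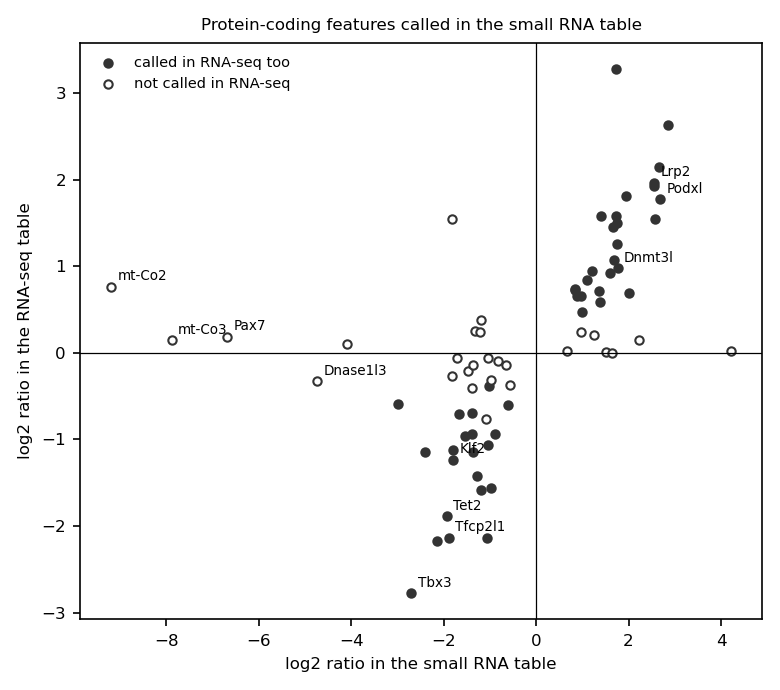
Each point is a protein-coding feature called in the small RNA table, placed by its log2 ratio of state 2 to state 1 there (x axis) and in the RNA-seq table (y axis); filled points were called in RNA-seq too. All 47 filled points lie at the lower left or the upper right, and mt-Co2, mt-Co3 and Pax7 lie far to the left without a like ratio in RNA-seq.

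Calls in the other noncoding classes are set against 0.696% over all features and 0.428% over features other than hairpins. At a mean of at least 10 these shares were 4.05% and 2.4%. Of 428 snoRNAs, the guides of rRNA modification, 4 fell and none rose (0.935%): Snora16a, listed at 107 in state 1 and at 0 in the other 3 groups, Gm26330 (873 to 491), Snord13 (519 to 317) and Snord53 (9919 to 6535). The 241 snoRNAs with a mean of at least 10 had a median of -0.47, beside -0.58 for equal column shares, and 223 were below 0. Of the 241, 1.66% were called, less than either share at that mean. Box C/D and box H/ACA names did not part: their medians were -0.48 over 77 and -0.46 over 33. The scaRNAs Gm23370 and Gm22728 fell among 25 (8.0%), and no snRNA was called among 384. The telomerase RNA Terc fell from 155 to 90.2.

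Of the rRNA features the 5S copies n-R5s127 (95.98 to 16.7) and n-R5s28 (168 to 98.9) fell, while the most abundant, CT010467.1, was listed at 390926 and 349501 and was not called. Near-identical 5S copies share reads, so single copies are uncertain. Of 24 tRNA features 3 were called (12.5%), all lower. The mitochondrial tRNAs mt-Ti (290 to 153) and mt-Tn (87.3 to 42.3) fell, as did n-TSaga9 (249 to 164). Of the mitochondrial tRNAs 17 of the 18 with a mean of at least 10 had ratios below 0, with a median of -0.60, beside -0.58 for equal column shares. All tRNA features together took 0.299% of the state 1 column and 0.291% of the state 2 column. The mitochondrial mRNA features mt-Co2 and mt-Co3 fell from 581 to 0 and from 299 to 0.27, while the other 5 listed, mt-Co1, mt-Cytb, mt-Nd1, mt-Nd4 and mt-Atp6, were not called and had ratios between -0.92 and -0.42. In RNA-seq mt-Co2 was at 3305 and 5615 and mt-Co3 at 4536 and 5004, neither called.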

How the data were processed

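Small RNA-seq of sorted mouse embryonic stem cells (libraries D and E) and RNA-seq (A to C) were used as the authors deposited them. In both tables the values are a normalized signal per feature and group, per the file headers; their scaling and merging is not stated in the sources used here. The authors also deposited, per the file headers, a score for 15 patterns of like and unlike groups, which is EBSeq's posterior probability of the pattern. RSEM 1.2.30, STAR 2.4.1d and the builds GRCm38 and mm10 are named in the submitters' processing notes. Adapters were ligated to make the small RNA libraries, per the labels' protocols.

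The patterns were read in the EBSeq order for state 3, state 2, state 1 and total population. Over 161 small RNA features with a mean of 5 or more and 1 pattern scored 0.95 or more, groups that the pattern joins were nearer on average in log2 value than groups it parts in 100% under this order, against 85.7% with state 1 and the total population exchanged. The sum over patterns was run on simulated posteriors that already held the true pattern, which checks the arithmetic only. It cannot judge the authors' posteriors or the inferred pattern order. No p-value was computed, because the tables hold 1 value per group, and the planned fits on counts per library were not run. Calls rest on the authors' model, and the posteriors may measure technical spread only.

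The members, the 20 microRNA lists and the rule for names were chosen with earlier results of these data known. Named were the 12 largest called rises and 12 largest called falls with a mean of at least 10, the 15 most abundant hairpins, the 4 most abundant of each list, and per other class the 4 largest called changes each way and the 2 most abundant features; only part of these is printed, and further features make up small counts or lie in host genes. Hairpins were matched to RefSeq genes of GRCm38.p6 by symbol (603 of 605), and hosts were taken from position and strand, where the strand is known. Features without a name stayed in the counts of features other than hairpins and out of lists. Reads per group were estimated from the commonest low values. Alternatives were other scalings, pseudocounts of 0.5 and 5, thresholds of 0.90 and 0.99, a minimum mean and the other pattern order. Computing used Python 3.11.15, pandas 2.3.3 and numpy 2.4.6.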

Additional observations from a re-analysis of the deposited data

How the results depend on the processing

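No paired analysis was possible because the tables hold 1 merged value per group, and for the same reason no replicate could be left out; neither fit was run. With state 1 and the total population exchanged in the pattern order, 47 hairpins were called in place of 73, while the calls among other features (101 against 110) and all counts at thresholds of 0.90 and 0.99 or with a minimum mean stayed within 1.5 times. The median log2 ratio of the hairpins, -0.37 as deposited, was -0.18 with a pseudocount of 5, -0.54 with a mean of at least 10, 0.050 on column totals and 0.17 on hairpin totals. Chosen after seeing the data, hairpin totals without mir-292a gave 0.081 and a shift to the median hairpin 0.011. Scaling by totals adds up to 0.58 (column totals) and 0.74 (hairpin totals) to a log2 ratio, and less where the pseudocount weighs on low values. Of the 20 lists 13 had a median below 0 as deposited, 10 on column totals and 7 on hairpin totals. On hairpin totals let-7i had 0.12 and mir-18a 0.11. Summed with the hairpins that share their mature sequence, also chosen after seeing the data, mir-9-2 and mir-9-3 had -0.36. Depth limits hairpins near 0: 83 were listed at 0 in state 1 and 73 in state 2.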

Other observations

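Some features that fell in the small RNA table were not called in RNA-seq, where their values were low. The small RNA feature of Pax7, a muscle and neural crest transcription factor, was at 102 in state 1 and 0 in state 2, and its RNA-seq value was 0.97 and 1.24. Dnase1l3 was at 25.6 and 0 (0.66 and 0.32 in RNA-seq), and Hoxb8 at 77.8 and 21.3 (1.28 and 5.67 in RNA-seq). These names were chosen after their values were seen, and all 3 lie outside the 47 features called in both tables.

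The table also holds 156 hairpins with a miRBase number and no name, which took 0.0211% of the state 1 column and 0.0264% of the state 2 column. A single one was called, falling from 109 to 25.4, with 11.1 in state 3 and 99.8 in the total population. mir-124-1 was at near values in states 1, 2 and 3 and the total population (113, 28.3, 11.1 and 101). Whether this hairpin and mir-124-1 share reads was not tested. The noncoding host transcript Mir124a-1hg fell in the small RNA table from 249 to 63.6 and in RNA-seq from 452 to 143, beside the falls of mir-124-1 and mir-3078.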
